A study of Mus musculus with 10 samples.

Results

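Fads1 and Fads2 encode the fatty acid desaturases that build long-chain polyunsaturated fatty acids. They were followed here as 2 genes of 19505 measured in the hypothalamus of male mice of the inbred strain C57BL/6J. The Young group held 5 arrays from mice aged 24 weeks and the Old group 5 arrays from mice aged 138 weeks; all were fed freely, and no treatment or transgene is named in the labels. Each gene was read by 1 probe set of the Clariom S Mouse array, TC1900000188.mm.2 for Fads1 and TC1900001095.mm.2 for Fads2. Both genes were picked because the Old and Young values differed, so that contrast is described for them and not tested. Whether the arrays come from separate animals is not stated, so each p-value reflects only array-to-array spread, some of which may be technical.

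Polyunsaturated fatty acids such as arachidonic acid and docosahexaenoic acid are major acyl chains of brain phospholipids. Their synthesis from the essential fatty acids linoleate and alpha-linolenate includes alternating steps of desaturation and elongation in the endoplasmic reticulum. Fads2 carries out the first and rate-limiting desaturation, and Fads1 acts after elongation to give arachidonic and eicosapentaenoic acid. Both enzymes carry a fused cytochrome b5 domain that supplies electrons, and in other tissues both genes are known targets of the sterol-regulated transcription factor SREBP and of PPAR alpha.

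The 2 genes lie close together on mouse chromosome 19, and their values were both lower in Old, so the promoter that the RefSeq table holds is shown. It is the Fads2 window of 250 bases before the transcription start, chr19:10101504-10101753 of GRCm38.p6, minus strand, with a GC content of 64.8%. The capitals mark the single motif match, an Sp1 box whose first base lies 186 bases before the start.
Fads2 upstream region: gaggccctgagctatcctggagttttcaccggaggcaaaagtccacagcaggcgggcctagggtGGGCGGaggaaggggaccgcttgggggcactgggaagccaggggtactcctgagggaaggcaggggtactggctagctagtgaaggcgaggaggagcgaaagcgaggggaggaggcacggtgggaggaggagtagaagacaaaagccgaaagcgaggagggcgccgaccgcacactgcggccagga
Both strands were searched for GGGCGG (Sp1), which 32.7% of 32851 RefSeq windows of that length hold, for CCAAT (NF-Y, 33.8%), for TCACNCCAC (sterol regulatory element, 1.05%) and for CACGTG (E-box, 6.02%). Of these only the Sp1 letters were found in this window, which says nothing about sites elsewhere.

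The deposited values were read as log2 signal, a base the file does not name. For nearly all genes they are almost the same number on all 10 arrays: the median SD over the arrays was 1e-05 log2, and 276 genes (1.415%) reached an SD of 0.01 log2 and are called varying here. A gene that did not vary has a level, but its values cannot show the size of a change. Fads1 (SD 0.123) and Fads2 (SD 0.071) both varied.

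Fads1 was lower in Old on every array. In Young its log2 signal was 9.57, 9.52, 9.56, 9.46 and 9.50 on arrays 1 to 5. In Old it was 9.17, 9.35, 9.37, 9.31 and 9.32. The lowest Young array lay 0.096 above the highest Old array, so the groups did not overlap, and Old 1 stood below the other Old arrays. The mean was 9.52 ± 0.044 in Young and 9.30 ± 0.080 in Old (SD, n = 5), a difference of -0.22 (SE 0.041), or a signal 14.0% lower in Old. Without Old 1 the difference was -0.18.

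Fads2 was lower in Old as well, by less. In Young its log2 signal was 10.75, 10.76, 10.76, 10.78 and 10.81 on arrays 1 to 5. In Old it was 10.55, 10.69, 10.66, 10.68 and 10.71. The gap between the lowest Young and the highest Old array was 0.044, and Old 1 was again the lowest. The mean was 10.77 ± 0.025 in Young and 10.66 ± 0.061 in Old (SD, n = 5), a difference of -0.11 (SE 0.030), or a signal 7.59% lower in Old. Without Old 1 it was -0.09. In bulk tissue, fewer cells of a type and less RNA per cell cannot be told apart.

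**Figure D1:**
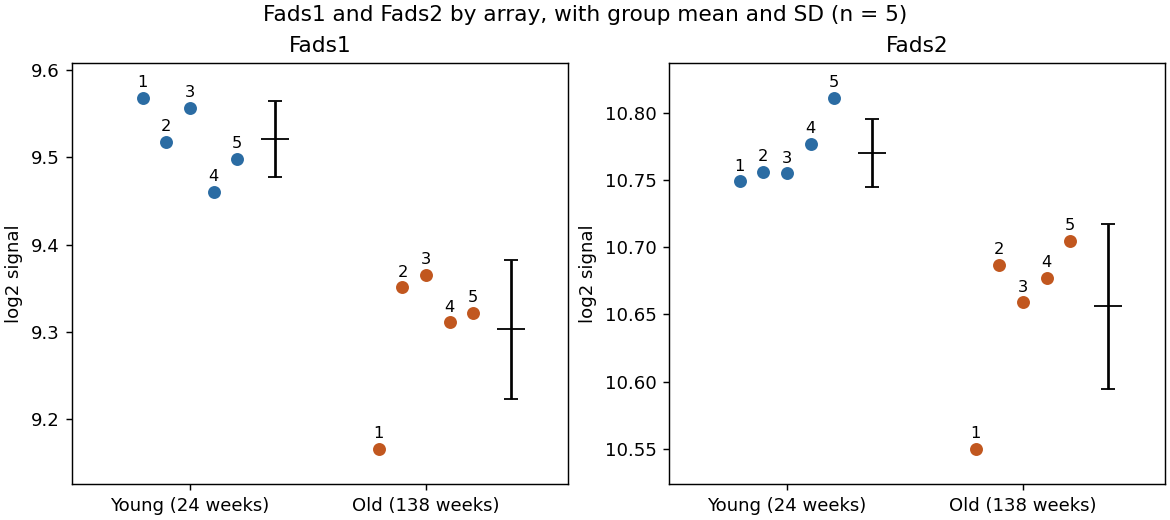
Log2 signal of Fads1 (left) and Fads2 (right) on each array; points carry the array number, horizontal bars and whiskers give the group mean and SD (n = 5), and the vertical axes differ and do not start at 0. The 5 Old arrays sit below the 5 Young arrays for both genes, and Old 1 is lowest at 9.17 and 10.55.

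The groups did not overlap for 2 of 2 members, against 7.25% of varying genes and 0.538% of all genes that were lower in Old without overlap. In the limma fit to the full table of 19505 genes with Benjamini-Hochberg adjustment, called the full-table fit below, 0 of 2 members passed an adjusted p of 0.05, where 0.0308% of genes were called lower and 0.19% higher. In a second fit restricted to the 276 varying genes, called the varying-gene fit, 2 of 2 passed as lower, where 11.2% of genes were called lower and 24.6% higher. Since the pair was picked on this contrast, nothing is read from these counts. By size, Fads1 ranked 22 and Fads2 ranked 55 among the 145 varying genes with a lower mean in Old.

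The difference was larger for Fads1 than for Fads2. Levels of different probe sets are not comparable, but the log2 ratio of Fads1 to Fads2 can be followed from array to array. It moved by -0.10 (SE 0.033) from Young to Old, with an SD of 0.063 in Young and 0.038 in Old (n = 5 each). Of the 5 Old arrays, 4 had a ratio below every Young array; Old 3 was the exception.

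Whether the desaturases also move together among arrays of one age was not used to pick them. Each array's deviation from its age-group mean was therefore compared between the genes. Over 10 arrays Pearson's r was 0.60 (permutation p = 0.196) and Spearman's rho 0.091 (permutation p = 0.828), with 2-sided permutation within each age and adjusted p-values of 0.393 and 0.828 over both measures. The positive r rested on Old 1, which lay 0.137 below its group mean for Fads1 and 0.105 below for Fads2. Without Old 1, r was -0.62 (permutation p = 0.121) and rho was -0.73 (permutation p = 0.0489). Old 1 and Young 4 had the Fads1 deviations farthest from the median deviation, and without both r was -0.73 (permutation p = 0.0599). Within Young, arrays 1 and 3 were highest for Fads1 and among the lowest for Fads2, and Young 5 was highest for Fads2 and below its group mean for Fads1. The arrays therefore do not show that the genes rise and fall together within an age.

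**Figure D2:**
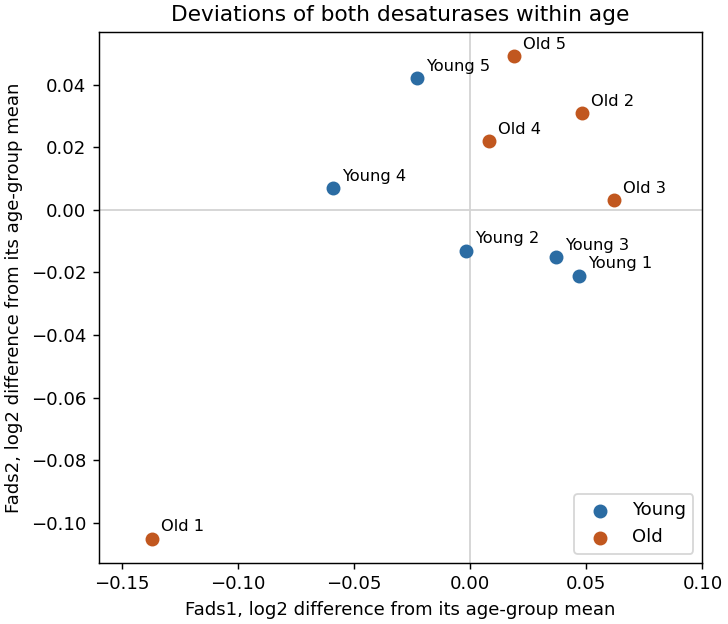
Each point is 1 array; the axes give the log2 difference of Fads1 (horizontal) and Fads2 (vertical) from the mean of that array's age group. Old 1 lies alone at -0.137 and -0.105, and r over the other 9 arrays is -0.62.

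The other genes of fatty acid metabolism were taken from lists of 129 genes that leave out Fads1 and Fads2. Of these, 112 were measured, 5 varied and 107 did not. In the full-table limma fit 0 passed in either direction, and an unmoderated test also called 0. The unadjusted p was under 0.05 for 10 of the 112, against 1331 of all 19505 genes. In the varying-gene fit 0 of 5 rose and 2 fell, where 24.6% and 11.2% of genes were called. The median difference over the 112 genes was -3.28e-07 log2, against -8.74e-08 over all genes tested. Of the 5 varying genes, 4 had a lower and 1 a higher mean in Old.

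Desaturation alternates with elongation, and Elovl6 and Tecr were the 2 varying members of a list of 14 measured fatty acid desaturase and elongation genes. Not all of these act on polyunsaturated chains. Tecr, the reductase that completes each elongation cycle, was at 11.35, 11.27, 11.35, 11.36 and 11.31 in Young and at 11.24, 11.29, 11.25, 11.24 and 11.23 in Old. The groups overlapped through Young 2 and Old 2, and the difference was -0.08 (SE 0.020). Its limma adjusted p was 0.319 in the full-table fit and 0.0397 in the varying-gene fit. That second call was lost on leaving out any 1 array except Young 2 and Old 2 (adjusted p from 0.0524 to 0.0964, differences from -0.08 to -0.07). It was also lost without Young 3 and Young 5 together (adjusted p = 0.118) and with the replicate number as a block (adjusted p = 0.122). Elovl6, which lengthens palmitate to stearate, had a mean of 9.89 ± 0.019 in Young and 9.83 ± 0.065 in Old (SD, n = 5), with limma adjusted p = 0.73 in the full-table fit and 0.156 in the varying-gene fit. The elongases that act beside Fads1 and Fads2, Elovl5 (9.78 log2) and Elovl2 (7.49), did not vary, so their values cannot show a change. The same holds for Fads3 (7.08) and Fads6 (7.39), the other measured desaturases of that list.

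Scd1, which turns stearate into oleate, varied among 5 measured genes of the stearoyl-CoA and sphingolipid desaturases. Its log2 signal was 10.23, 10.10, 10.13, 10.15 and 10.16 in Young. In Old it was 9.74, 10.03, 10.23, 10.17 and 10.14. Old 1 was again the lowest array and the groups overlapped. The difference was -0.09 (SE 0.089), with limma adjusted p = 0.897 in the full-table fit and 0.396 in the varying-gene fit, and it was -0.01 without Old 1. Scd3 (7.60) and Scd4 (6.15) did not vary.

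Fabp7, a fatty acid-binding protein of astrocytes and radial glia with high affinity for docosahexaenoic acid, varied among 13 measured genes of fatty acid uptake and activation. It was at 10.02, 10.01, 10.39, 10.03 and 10.10 in Young and at 9.63, 9.45, 10.03, 9.82 and 9.59 in Old. The groups overlapped slightly, since Old 3 reached the level of the lower Young arrays, and Young 3 was the highest. The difference was -0.41 (SE 0.12), with limma adjusted p = 0.471 in the full-table fit and 0.0208 in the varying-gene fit. The second call held when any single array was left out (adjusted p at most 0.0494) and was lost without Young 3 and Young 5 together (difference -0.32, adjusted p = 0.0808).

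Ephx1, the microsomal epoxide hydrolase, varied among 17 measured genes of eicosanoid and oxylipin synthesis, whose substrates the desaturases supply. Its mean was 7.65 ± 0.12 in Young and 7.83 ± 0.12 in Old (SD, n = 5), with limma adjusted p = 0.688 in the full-table fit and 0.0674 in the varying-gene fit. In the varying-gene fit it passed when Young 5 (difference 0.22, adjusted p = 0.0219) or Old 3 (0.21, adjusted p = 0.0423) was left out. Without Young 3 and Young 5 together it passed too (0.24, adjusted p = 0.0414).

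**Figure D3:**
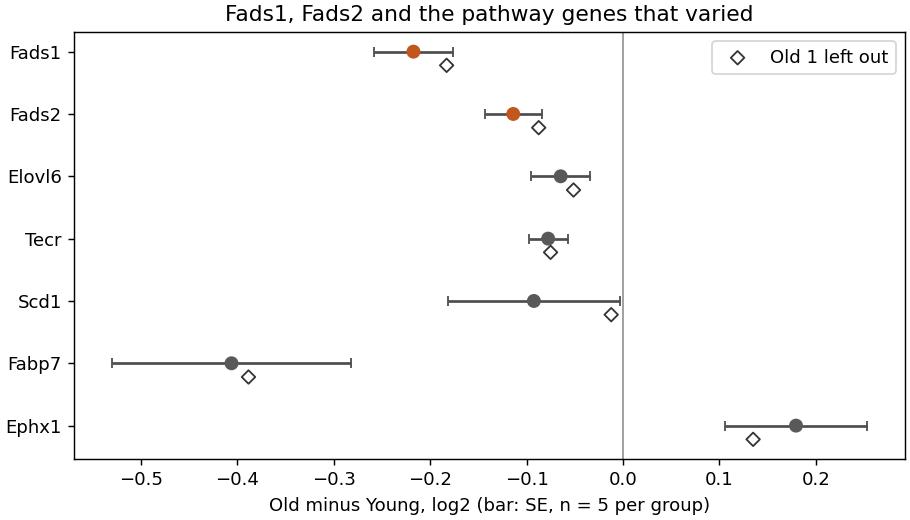
Old minus Young in log2 (horizontal axis) for Fads1 and Fads2 (orange) and the 5 pathway genes that varied (grey); bars are the SE of the difference (n = 5 per group) and open diamonds give the difference without Old 1. Fads1 and Fads2 stay near -0.18 and -0.09 without that array, while Scd1 moves from -0.09 to -0.01.

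No member varied in the remaining lists. These held 10 measured regulators of the SREBP, LXR and PPAR families, 10 genes of fatty acid synthesis, 18 of cholesterol synthesis and uptake, 6 of desaturase electron transport, 5 of peroxisomal chain shortening and 14 of phospholipid remodelling. Among them were Srebf2 (10.13 log2), the SREBP brake Insig1 (9.07), fatty acid synthase Fasn (8.85), Hmgcs1 of the mevalonate pathway (10.21) and the cytochrome b5 reductase gene Cyb5r3 (9.74). The deposited values thus give levels for this machinery and no measure of its change with age.

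The desaturase pair was also set against its neighbours in the gene order of the RefSeq table. On the Fads2 side stand Gm29917, Fads3, Rab3il1 (6.33 log2), Best1 (6.71) and Fth1, and on the Fads1 side Mir6993, Fen1 (6.35), Tmem258 (7.27), the oligodendrocyte transcription factor gene Myrf (8.73) and Dagla (7.65), which makes an endocannabinoid from arachidonoyl lipids. Gm29917 and Mir6993 were not analysed here. Of the 8 measured neighbours only Fth1, the ferritin heavy chain, varied, and its difference had the other sign: 12.53 ± 0.027 in Young and 12.64 ± 0.041 in Old (SD, n = 5), or 0.11 (limma adjusted p = 0.114 in the full-table fit and 0.00828 in the varying-gene fit). The other 7 had an SD of 1e-05 and show no size of change.

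Genes were then ranked by how closely their within-age deviations followed the mean deviation of Fads1 and Fads2 over the 10 arrays, among the 274 other varying genes; these correlations are descriptions. The 6 highest were Kcnj10, an astrocyte potassium channel (r = 0.94), the endocytic scaffold Itsn1 (0.91), the actin-binding Lasp1 (0.91), the secreted glycoprotein Fstl1 (0.90), Scd1 (0.87) and the amino acid transporter Slc38a2 (0.85). The 4 lowest were Pik3ip1, an inhibitor of phosphoinositide kinase (r = -0.95), the deaminase Rida (-0.91), Luzp2 (-0.71) and Hsd17b11, a lipid-droplet dehydrogenase (-0.67). In each of the 6 highest Old 1 was the lowest Old array, and in each of the 4 lowest it was the highest. Without Old 1 the values were 0.16 for Kcnj10, 0.17 for Itsn1, -0.60 for Lasp1, 0.50 for Fstl1, -0.01 for Scd1 and -0.26 for Slc38a2. They were -0.14 for Pik3ip1, 0.096 for Rida, -0.39 for Luzp2 and 0.35 for Hsd17b11. The likeness thus rests mostly on Old 1, though Fstl1 (0.50) and Luzp2 (-0.39) kept part of theirs. Leaving out any other array was not tried for this ranking. Over the other 9 arrays the closest genes were Fcgr2b (0.78), Arrdc3 (0.70) and Mt2 (0.64), chosen after their values were seen.

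**Figure D4:**
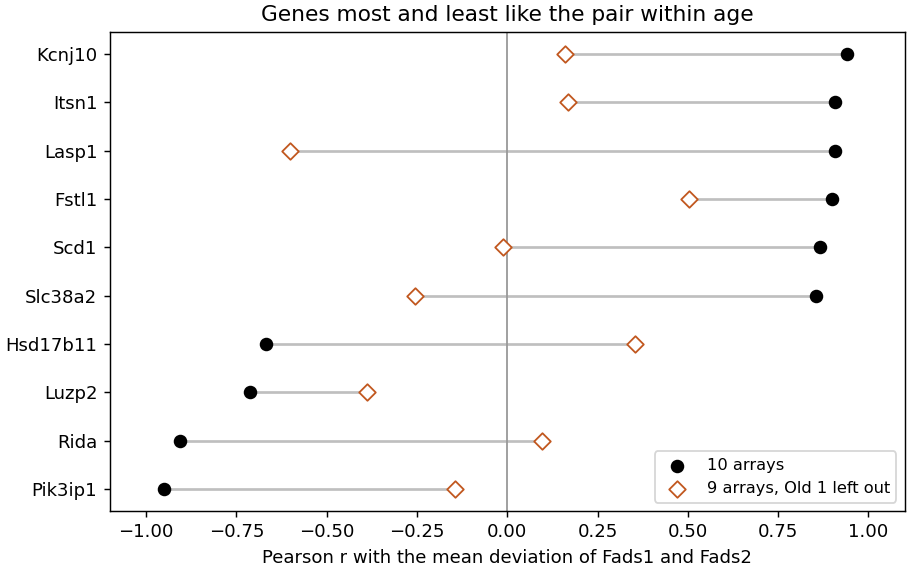
Pearson r (horizontal axis) between each gene's within-age deviations and the mean of those of Fads1 and Fads2, over 10 arrays (filled) and over 9 arrays without Old 1 (open diamonds). Kcnj10 moves from 0.94 to 0.16 and Lasp1 from 0.91 to -0.60.

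Over the varying genes as a whole, the mean correlation of Old 1 with the other Old arrays was 0.991, and those of the other Old arrays ran from 0.988 to 0.992. Differences in level between genes keep these correlations high for any array, so they cannot show whether Old 1 stands apart. Old 1 was the lowest Old array for 96 of 276 varying genes, where Old 5 was lowest for 83, Old 2 for 49 and Old 3 and Old 4 for 24 each.

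Markers of the cells a hypothalamus sample can hold were read beside the pair, as the mean log2 signal over each measured list and array. Of the measured markers, 7 of 18 hypothalamic neuron, 3 of 7 precursor, 3 of 9 microglial and 3 of 9 endothelial ones varied. The rest add a nearly constant value to each mean, so similar list means cannot show an unchanged cell content. Over the varying markers alone, microglial means were 7.94 to 8.04 in Young and 8.37 to 8.58 in Old. Endothelial ones were 9.11 to 9.24 and 9.13 to 9.47. All 18 hypothalamic neuron markers were measured, with list means from 7.92 to 8.00 in Young and 7.97 to 8.04 in Old. Among the varying ones were Sst at 10.64 ± 0.078 and 10.48 ± 0.074, Pmch at 10.32 ± 0.087 and 10.40 ± 0.086, and Avp at 9.06 ± 0.19 and 9.68 ± 0.23 (Young and Old, SD, n = 5). No detection call was used, so no marker is called absent.

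Astrocytes, which express both desaturases, had list means of 9.49 to 9.52 in Young and 9.42 to 9.50 in Old over 10 measured markers. In the full-table fit 1 rose and 2 fell, where 0.19% and 0.0308% of genes were called. The 6 markers that varied had means of 10.19 to 10.25 in Young and 10.08 to 10.21 in Old. Of these 6, 1 rose and 3 fell in the varying-gene fit, where 24.6% and 11.2% were called. Gja1, the astrocyte gap junction gene, was among those that fell (-0.14, limma adjusted p = 0.0353 in that fit), while Slc1a2 (0.004) and Aldoc (0.06) did not pass. Kcnj10, also on this list, fell without overlap between the groups, by a difference of -0.48. Its limma adjusted p was 0.0104 in the full-table fit and 1.46e-04 in the varying-gene fit. Over 13 oligodendrocyte markers the list means were 9.04 to 9.16 in Young and 9.04 to 9.10 in Old. In the varying-gene fit 2 of 7 varying markers fell and 0 rose. The varying markers with the highest level, the myelin genes Mbp (0.08), Mobp (0.10) and Mal (-0.05), did not pass, so they are not those that fell. Precursors and newly formed oligodendrocytes had 8.00 to 8.13 and 8.04 to 8.14. In their list Bcas1 rose by 0.47 (limma adjusted p = 0.00482 in the full-table fit), Gpr17, a receptor of newly formed oligodendrocytes, was lower without overlap between the groups, by a difference of -0.20 (limma adjusted p = 0.126 in the full-table fit and 0.00353 in the varying-gene fit). Tcf7l2 was at -0.18 and passed neither (limma adjusted p = 0.884 and 0.331). Microglial list means did not overlap, at 7.53 to 7.56 in Young and 7.67 to 7.75 in Old. Ctss, C1qa and C1qb rose in the varying-gene fit. Of these only Ctss passed in the full-table fit, where C1qa and C1qb each had limma adjusted p = 0.0719. Endothelial list means were 8.22 to 8.27 and 8.23 to 8.34. The 9 general neuron markers (10.01 in both ages) and the 6 of ependyma and tanycytes (6.90) did not vary. The part of cell composition in the desaturase difference was not tested.

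Tissue from outside the hypothalamus could carry desaturase signal, since liver makes much Fads1 and Fads2. Liver and plasma protein markers had list means of 6.41 to 6.65 in Young and 6.42 to 6.48 in Old, with Young 3 highest through Mup2 and Alb. The desaturases of Young 3 (9.56 and 10.76) lay inside the range of the other Young arrays. The part of liver tissue in the desaturase values was not tested. Choroid plexus markers had 6.59 to 7.98 in Young, highest in Young 5, and 6.60 to 6.70 in Old. Young 5 was also the highest Young array for Fads2 (10.81, next 10.78), but not for Fads1 (9.50), and without it the difference was -0.10 for Fads2 and -0.22 for Fads1; the part of choroid plexus in the Fads2 value was not tested. Striatal markers had 8.23 to 8.46 and 8.20 to 8.45, and pituitary markers 6.15 to 6.23 and 6.14 to 6.17. Without Young 3 and Young 5 together the difference was -0.21 for Fads1 and -0.10 for Fads2.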

How the data were processed

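The authors deposited 1 log2 value per probe set and array (22206 probe sets, range 5.002 to 12.972, array medians 6.778 to 6.783). The base was inferred from the range, and the sources used here do not give the background correction, normalization or summarisation. Near-constant values limit any measure of change to 276 genes, and precision is set by the 5 arrays per group. The platform annotation gave 19572 probe sets 1 symbol, 0 several and left 2634 unnamed; all 19572 gene identifiers matched RefSeq (GRCm38.p6), and the probe set with the highest mean was kept per gene. Old was compared with Young by limma 3.58.1 in R 4.3.3 (lmFit, eBayes, 2-sided, Benjamini-Hochberg over the full table), with a second fit restricted to the varying genes; the procedure was checked on simulated data. SEs are the pooled 2-group SE. Within-age correlations used 100000 permutations. Members and lists were chosen with earlier results of these data known. Genes named were the pair, pathway genes past the threshold or varying (up to 4 a list), the 6 most and 4 least alike in within-age deviations, up to 3 varying markers a list by level, and 5 neighbours a side; genes that did not vary, other markers named for single arrays, and the closest genes without Old 1 were named outside this rule. Alternatives were other scalings, probe set rules, gene filters, priors and thresholds, a replicate block and arrays left out.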

Additional observations from a re-analysis of the deposited data

Results flagged for a closer look

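In 16 genes (the pair, the varying pathway genes and the genes ranked by likeness), the lowest and highest array of each age was compared with its nearest neighbour. A gap above 0.71 of the range was found in 6 of 32 groups. Chance gives about 1 in 20 for groups not picked by their values. Since the genes ranked by likeness were picked by deviations in which Old 1 stands out, that rate does not apply to this count. Old 1 was lowest for Fads1 (9.17, nearest 9.31), Kcnj10 (9.19, nearest 9.45) and Lasp1 (10.39, nearest 10.53), and highest for Pik3ip1 (8.37, nearest 8.18). The last 3 genes were ranked by a likeness that rests on the same array, so their gaps are not separate evidence. Old 1 was lowest for Fads2 with a gap of 0.702 of the range, just under the limit. Old 2 was highest for Tecr (11.29, nearest 11.25), and Young 3 was highest for Fabp7 in its group (10.39, nearest 10.10).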

How the results depend on the processing

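Across 16 alternatives the difference stayed between -0.23 and -0.18 for Fads1 and between -0.13 and -0.08 for Fads2. For their ratio it stayed between -0.13 and -0.09, and each moved by less than 1 SD. Some alternatives could not move these values. Averaging probe sets changes nothing for genes with 1 probe set each, and median centring cannot change a ratio within an array. The within-age correlation reversed without Old 1 (-0.62) and without the arrays farthest in their Fads1 deviation (-0.73). Leaving out single arrays gave -0.62 to 0.70. Over all genes 37 were higher and 6 lower. Quantile normalization gave 154 and 6464, the varying genes 68 and 31, an SD of at least 0.05 gave 65 and 28, Young 3 and Young 5 left out 22 and 2, and an adjusted p under 0.01 gave 21 and 2. The trended robust prior gave 10 lower, and single arrays left out gave 25 to 37 and 4 to 9. With the replicate number as a block, 10 genes were higher and 1 lower. The differences of Fads1 (-0.22), Fads2 (-0.11) and their ratio (-0.10) were the same, as they must be when each block holds 1 array of each age. Same-numbered arrays correlated from -0.22 to 0.28 over the varying genes, and 1 of 5 Young arrays matched its own number best. Whether the numbers pair arrays is not stated, and these values cannot decide it. Pathway genes called lower numbered 0; they were 57 with quantile normalization, 55 of which did not vary and differed by at most 0.0029 log2. They were 2 in the varying genes and 1 with an SD of at least 0.05. With the trended robust prior 1 was called, and it was a gene that did not vary. Under that prior the varying pathway genes had limma adjusted p from 0.962 to 0.963. In the varying genes the pathway genes called lower were 1 with the replicate block and 1 to 2 without single arrays. They were 0 without Young 3 and Young 5 together and 2 under either scaling. These settings were all added after seeing the data, as was the likeness without Old 1. That likeness reversed for Lasp1 (-0.60), Scd1 (-0.011), Slc38a2 (-0.26), Hsd17b11 (0.35) and Rida (0.096). The causes were not tested.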
